A study of Mus musculus with 9 samples.

Results

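The collagen gene family was examined in subcutaneous mouse melanomas treated with antibodies against immune checkpoint proteins. Its members were chosen by name alone: all protein-coding genes of the mouse genome build GRCm38 whose symbol is Col, a type number, the letter a and a chain number. This gave 44 genes of the 22136 genes with values. They were described in 3 classes, with 11 fibrillar collagens, 9 collagens of basement membranes and 24 other collagens. Every tumor grew from YUMMER1.7 cells, an ultraviolet-irradiated and immunogenic mouse melanoma line, injected under the skin of immunocompetent C57BL/6J mice. Treatment started at a tumor volume of 20 to 50 mm3. The groups were anti-B7-H3 (3 samples), anti-PD1 (3 samples) and an IgG isotype control (3 samples). B7-H3 is a ligand-like surface protein of tumor and stromal cells, and PD1 is an inhibitory receptor of T cells. The labels give no age, dose or time of collection. Whether each library stands for a separate mouse is not stated; p-values therefore describe only how far these libraries scatter. Total RNA of whole skin tumors was sequenced after removal of ribosomal RNA, so tumor cells and host stroma are measured together, and fewer cells of a type cannot be told apart from less RNA per cell.

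Collagens are made of 3 chains wound into a triple helix, and each gene encodes a chain. Fibrillar collagens assemble into the cross-banded fibrils that give skin and tumor stroma their tensile strength, and fibroblasts are their main source. Type IV collagens form the sheet-like network of basement membranes under epithelia and around vessels, muscle and fat cells. The remaining types form beaded filaments (type VI), sit on the surface of fibrils (the fibril-associated or FACIT collagens), form short-chain networks (types VIII and X) or span the cell membrane (types XIII, XVII, XXIII and XXV).

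Libraries held between 8627930 and 27288766 estimated reads, but the groups differed in what these reads were. A set of 12 genes shared over 30% of their 15-base words with the gene with the most reads. They are called satellite genes here, a name not checked against a repeat sequence. They took 28.2, 5.24 and 6.41% of reads in the anti-B7-H3 libraries and 38.2, 19.8 and 14.6% in the anti-PD1 libraries. In the IgG libraries they took 92.1, 87.0 and 91.0%. Outside these genes, 7232196 to 14404557 reads remained in the anti-B7-H3 group, 5320073 to 9578312 in the anti-PD1 group and 1218985 to 3533214 in the IgG group. Background was gauged from the reads on 1509 receptor genes of smell and pheromone sensing, genes normally confined to sensory neurons of the nose. They stood at 40.4 to 198 CPM outside the satellite genes in the anti-B7-H3 group, 78.1 to 280 in the anti-PD1 group and 767 to 4969 in the IgG group. The IgG range did not overlap the others. Fits with this background as a covariate therefore cannot separate background from group in comparisons with IgG. Levels below are in CPM, the usual read count relative to library size, scaled by TMM, which centres the libraries on the typical gene. Differences are given as log2 fold change ± standard error (SE), and adjusted p-values come from edgeR's quasi-likelihood test over 12965 genes.

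No collagen passed the threshold of 0.05 in any comparison. Of the 36 collagens tested, 0 were called with anti-B7-H3 relative to IgG, where 0.555% of all genes were (0.00771% higher and 0.548% lower). Anti-PD1 relative to IgG also gave 0, where 0.393% of all genes were called (0.00771% higher and 0.386% lower). Between anti-B7-H3 and anti-PD1, 0 collagens and 0% of all genes were called, and a single test over all 3 groups called 0 collagens and 1.14% of all genes. At an unadjusted p under 0.05, anti-B7-H3 against IgG gave 0 higher and 4 lower collagens, beside 3.58 and 6.93% of all genes. Anti-PD1 against IgG gave 1 higher and 9 lower collagens, beside 7.67 and 10.8% of all genes. Anti-B7-H3 against anti-PD1 gave 3 higher and 0 lower collagens, beside 3.92 and 2.56% of all genes. Groups did not overlap for 0 higher and 1 lower collagen with anti-B7-H3 relative to IgG, beside 7.72 and 8.53% of all genes, and for 1 higher and 6 lower with anti-PD1 relative to IgG, beside 11.1 and 11.9%. The 6 were Col9a3, Col13a1, Col17a1, Col23a1, Col25a1 and Col27a1, of which 4 are the transmembrane collagens. All but Col27a1 averaged under 5 CPM. In the IgG libraries the 4 transmembrane members had 12 to 46 reads each. These were 0.642 to 2.97 times the reads predicted from receptor background for their coding length. The fold change of anti-PD1 against IgG was negative for all 13 tested collagens under 5 CPM. DESeq2 called 4 of the 36 collagens lower in each comparison with IgG. Of all 12965 genes it called 469 lower with anti-B7-H3 and 635 lower with anti-PD1. Between the antibodies DESeq2 called 0 collagens, beside 22 of all genes. In the single test over the 3 groups, 8 collagens had an unadjusted p under 0.05, beside 14% of all genes.

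The 44 collagens together took 4.44, 3.36 and 2.83% of non-satellite reads in the anti-B7-H3 libraries, 2.90, 2.35 and 3.36% in the anti-PD1 libraries and 3.07, 3.96 and 1.31% in the IgG libraries. The groups overlapped, and both the second highest and the lowest share were IgG libraries. The mean shares were 3.54 ± 0.819% with anti-B7-H3, 2.87 ± 0.506% with anti-PD1 and 2.78 ± 1.35% with IgG (SD, n = 3 each). Fibrillar collagens were the largest class in every library, by a narrow margin over the other collagens in IgG 3 (0.531 against 0.526%). They took 2.63, 1.68 and 1.60% of reads under anti-B7-H3, 1.48, 1.29 and 1.83% under anti-PD1 and 1.64, 2.22 and 0.531% under IgG. The same 5 genes led in every library: Col3a1, Col1a2, Col6a3, Col18a1 and Col6a1 held between 68.4 and 70.6% of all collagen reads.

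**Figure D1:**
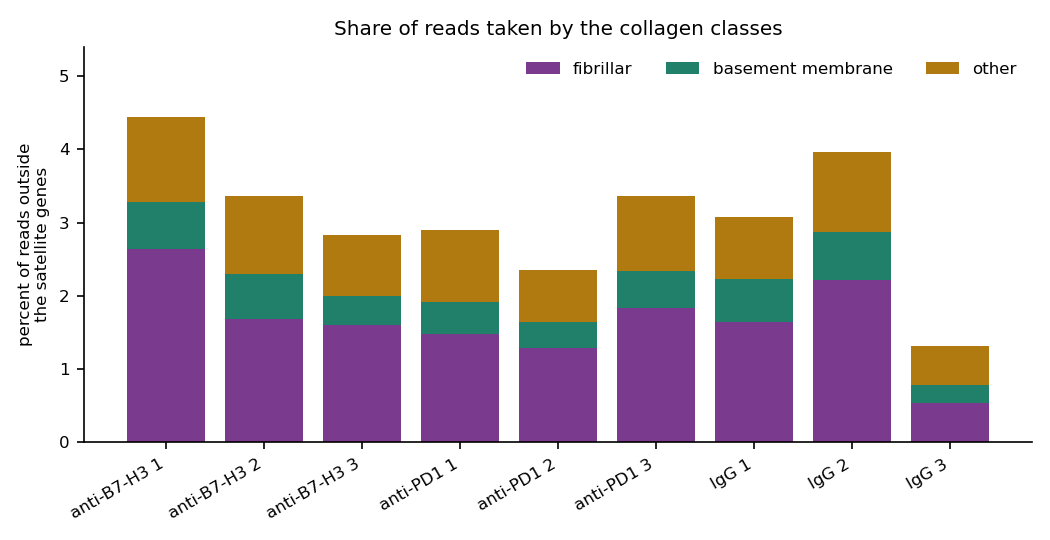
Each bar is 1 library, and its height is the percent of reads outside the satellite genes that fell on fibrillar, basement membrane and other collagens, stacked. The IgG group holds the widest range, from 1.31 to 3.96%, and the ranges of the 3 groups overlap.

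Per kilobase of the longest listed transcript of each gene, which allows levels to be compared between genes, Col3a1 and Col1a2 were the most abundant chains, at 579 and 538 CPM per kb on average over the 9 libraries. Col6a1 (249 CPM per kb), Col6a2 (181), Col6a3 (171), Col1a1 (147) and Col5a2 (116) followed. Part of the reads of Col6a2 and Col6a3 fell on shorter transcripts, so the order among Col6a1, Col6a2 and Col6a3 is not settled. Col18a1 had 211 CPM per kb by its longest transcript, but nearly all its long-transcript reads fell on a shorter one, which would put it higher; its place in the order is therefore not given. Among the other basement membrane collagens, Col4a1 had 49.2 and Col15a1 35.9 CPM per kb. Part of the Col4a1 reads also fell on shorter transcripts. A set of 23 members averaged at least 5 CPM, and 21 averaged less. Of these 21, 13 were tested, and the 8 others (Col2a1, Col4a3, Col9a1, Col9a2, Col10a1, Col19a1, Col22a1 and Col26a1) had between 12 and 44 reads in all 9 libraries together. The untested members include the chains typical of cartilage, namely type II (Col2a1), the pair Col9a1 and Col9a2 of type IX and type X (Col10a1).

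**Figure D2:**
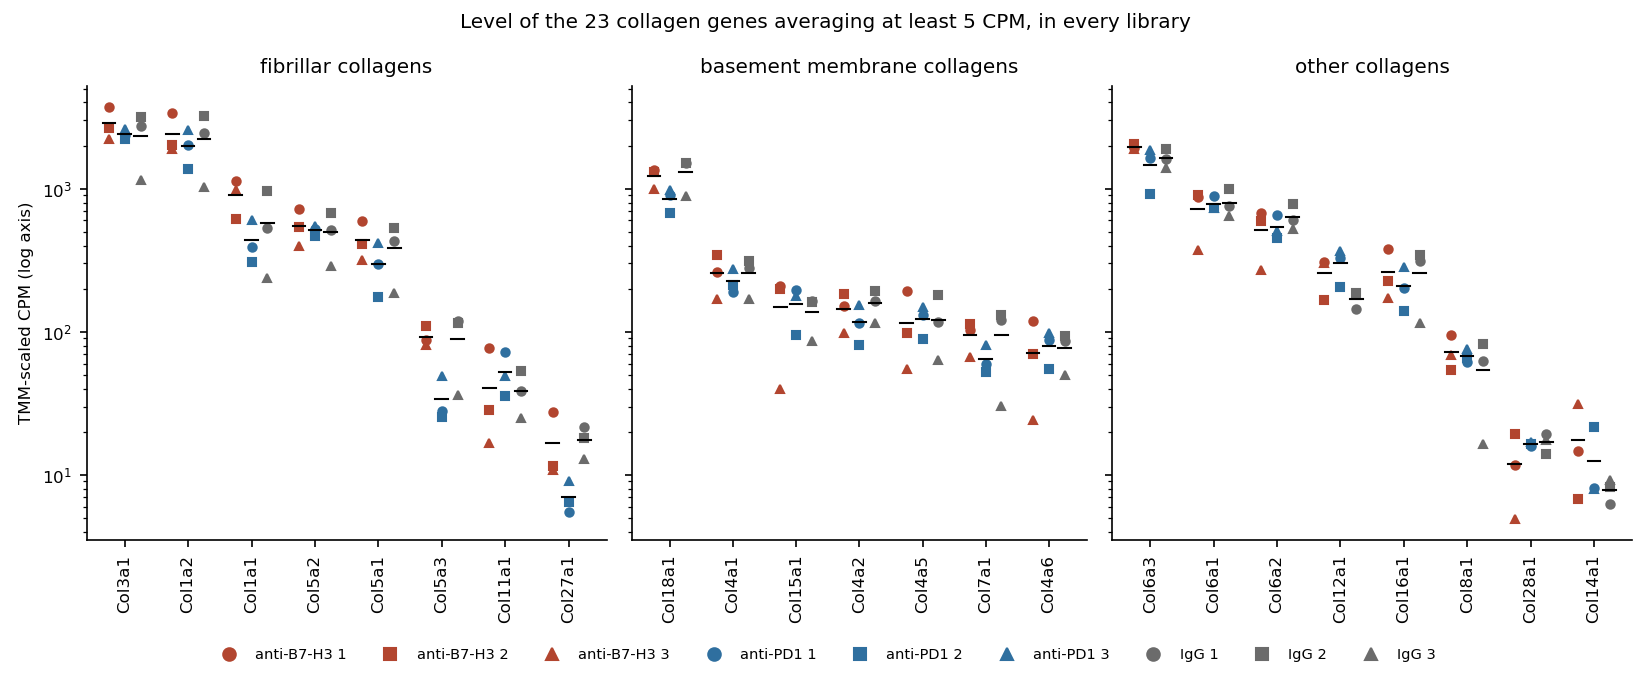
TMM-scaled CPM on a log axis of the 23 collagens that averaged at least 5 CPM, by class and falling mean level. Each point is a library, bars are group means, and the groups run anti-B7-H3, anti-PD1, IgG from left to right. The triangle of IgG 3 is the lowest point for Col3a1, Col1a2 and Col1a1, and the triangle of anti-B7-H3 3 the lowest for Col4a1, Col15a1 and Col6a1.

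A few libraries held most of the extremes. Among the 23 abundant members, anti-B7-H3 1 was the highest library for 12, including all chains of type I, the type III chain and 2 chains of type V. The lowest library was anti-B7-H3 3 for 8 members (Col4a1, Col4a5, Col4a6, Col6a1, Col6a2, Col11a1, Col15a1 and Col28a1) and IgG 3 for 7 (Col1a1, Col1a2, Col3a1, Col5a2, Col7a1, Col8a1 and Col16a1). IgG 3 was also the library with the fewest reads on collagens, 15945, against 65988 and 139934 in the other IgG libraries and up to 456747 elsewhere. Its receptor background was the highest, at 4969 CPM outside the satellite genes, against 2254 in IgG 1 and 767 in IgG 2. The part of background in the levels of IgG 3 was not tested. Summed skeletal muscle markers were 1528 CPM in anti-B7-H3 3, against 266 and 0.973 CPM in the other anti-B7-H3 libraries, 67.7 to 1048 CPM with anti-PD1 and 28.0 to 49.7 CPM with IgG. The part of muscle in the levels of that library was not tested.

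In the fibrillar class, the median log2 fold change over 10 tested members relative to IgG was 0.07 under anti-B7-H3 and -0.31 under anti-PD1. Between the antibodies, anti-B7-H3 over anti-PD1, it was 0.43. Single libraries moved these medians. Without IgG 3 the values relative to IgG were -0.21 under anti-B7-H3 and -0.60 under anti-PD1, and without IgG 2 they were 0.41 and 0.07. Without anti-B7-H3 1 the median was -0.13 for that group relative to IgG and 0.16 between the antibodies. The medians of all genes tested were 0.03, 0.01 and 0.01. The comparisons share libraries, so these medians are not independent. Groups did not overlap between anti-B7-H3 and anti-PD1 for 4 fibrillar members higher with anti-B7-H3 (Col1a1, Col5a3, Col11a2 and Col27a1) and for 1 lower (Col24a1). Over all collagens the same held for 7 higher and 1 lower of 36, beside 7.55 and 7.89% of all genes.

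Col5a3 encodes the third chain of type V collagen, a minor collagen that sits inside type I fibrils and limits their width; the gene lies on chromosome 9 at 20770050 to 20815067. It had 87.4, 109.6 and 80.8 CPM with anti-B7-H3, 27.9, 25.4 and 49.0 CPM with anti-PD1 and 119, 114 and 35.9 CPM with IgG. All anti-B7-H3 values lay above all anti-PD1 values, and the IgG libraries overlapped both groups. The log2 fold change was 1.44 ± 0.40 for anti-B7-H3 against anti-PD1 (adjusted p = 0.749) and -1.41 ± 0.41 for anti-PD1 against IgG (adjusted p = 0.124). DESeq2 called the difference from IgG. With receptor background as a covariate it was -2.25, and without IgG 3, the low library of its group, it was -1.77.

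Col27a1 encodes a fibrillar chain best known from cartilage; the gene lies on chromosome 4 at 63214004 to 63334991. It had 27.7, 11.5 and 10.8 CPM with anti-B7-H3, 5.54, 6.51 and 9.07 CPM with anti-PD1 and 21.6, 18.2 and 12.9 CPM with IgG. Anti-PD1 was below both other groups in every library. Its log2 fold change was 1.23 ± 0.36 for anti-B7-H3 against anti-PD1 (adjusted p = 0.749) and -1.34 ± 0.38 for anti-PD1 against IgG (adjusted p = 0.119). Without anti-B7-H3 1, the highest library, the first value was 0.66. The second was called by DESeq2, and by edgeR in the fit without anti-B7-H3 1, whereas it was -0.62 with receptor background as a covariate.

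Col1a1 encodes the major chain of type I collagen, which combines in the common heterotrimer with the product of Col1a2; it lies on chromosome 11 at 94936224 to 94953042. Col1a1 had 1138, 613 and 971 CPM with anti-B7-H3, 393, 308 and 608 CPM with anti-PD1 and 533, 962 and 239 CPM with IgG. The closest values of the antibody groups, 613 and 608 CPM, were nearly equal, and the IgG libraries overlapped both groups. Anti-B7-H3 against anti-PD1 came to 1.06 ± 0.46 (adjusted p = 0.749) and anti-B7-H3 against IgG to 0.65 ± 0.46 (adjusted p = 0.672). The value against IgG was 1.24 without IgG 2, 0.28 without IgG 3 and -0.11 with receptor background as a covariate.

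The partner chain Col1a2 did not share this spacing. It had 3353, 2015 and 1885 CPM with anti-B7-H3, 2025, 1381 and 2559.5 CPM with anti-PD1 and 2460.0, 3224 and 1033 CPM with IgG, and all groups overlapped. Its 3 log2 fold changes lay between -0.17 and 0.28. Relative to IgG they were -0.23 under anti-B7-H3 and -0.51 under anti-PD1 without IgG 3, and 0.48 and 0.20 without IgG 2; between the antibodies the value was -0.03 without anti-B7-H3 1. Col3a1, the chain of type III collagen that is laid down with type I in skin, had 3740.2, 2639 and 2239 CPM with anti-B7-H3, 2381, 2220.4 and 2631 CPM with anti-PD1 and 2728, 3159 and 1145 CPM with IgG. The groups overlapped here too, with log2 fold changes from 0.04 to 0.29. Without IgG 3, the values relative to IgG were -0.03 under anti-B7-H3 and -0.28 under anti-PD1.

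The other chains of type V differed less than Col5a3. Col5a1 had 596, 408 and 319 CPM with anti-B7-H3, 296, 176 and 418 CPM with anti-PD1 and 431, 532 and 187 CPM with IgG. Col5a2 had 721, 539 and 396 CPM with anti-B7-H3, 526, 470.2 and 551 CPM with anti-PD1 and 517, 679 and 286 CPM with IgG. Both overlapped in every comparison, and their largest log2 fold change was 0.57 ± 0.41 for Col5a1, anti-B7-H3 against anti-PD1. Col11a1, a nucleating chain of cartilage and tumor stroma fibrils, averaged 40.5 ± 31.7 CPM with anti-B7-H3, 52.4 ± 18.3 CPM with anti-PD1 and 38.8 ± 14.1 CPM with IgG (SD, n = 3 each). Its partner Col11a2 stayed at or below 4.14 CPM in every library.

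Because a ratio between 2 chains in the same library does not depend on how libraries are scaled, 8 such ratios were formed from reads per coding kilobase; this measure was chosen after the levels had been seen. The ratio of Col1a1 to Col1a2 was 0.320, 0.287 and 0.487 under anti-B7-H3, 0.183, 0.211 and 0.224 under anti-PD1 and 0.205, 0.282 and 0.218 under IgG. Every anti-B7-H3 library lay above every other library, by a difference of 0.79 in mean log2 ratio against anti-PD1 and 0.61 against IgG. In a two-sided exact permutation test both gave p = 0.1, the smallest value that 3 samples against 3 allow, and an adjusted p of 0.3 over the 24 comparisons of the 8 ratios. The nearest pair of values, 0.287 in anti-B7-H3 2 and 0.282 in IgG 2, differed little. The separation was also present when only the longest listed transcript of each gene was counted (0.293 to 0.502 with anti-B7-H3, 0.188 to 0.228 with anti-PD1 and 0.208 to 0.285 with IgG).

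In the ratio of Col5a3 to Col5a1 the anti-PD1 libraries were the lowest. It was 0.155, 0.284 and 0.268 under anti-B7-H3, 0.0997, 0.152 and 0.124 under anti-PD1 and 0.291, 0.227 and 0.203 under IgG. Anti-PD1 lay below both other groups, with a difference in mean log2 ratio of 0.88 for anti-B7-H3 against anti-PD1 and -0.94 for anti-PD1 against IgG. The exact permutation p was again 0.1 in each, adjusted 0.3. Anti-B7-H3 1, at 0.155, was close to the highest anti-PD1 library. With background subtracted, IgG 3 was close to it as well, at 0.160 against 0.152 in anti-PD1 2. The difference of anti-PD1 from IgG was then -0.83. In all, groups did not overlap in 8 of the 24 comparisons of ratios, each with p = 0.1 in the exact permutation test and an adjusted p of 0.3. Beside these 4 they were Col4a1 to Col4a2 and Col6a3 to Col6a1, each above IgG under anti-B7-H3 (by 0.15 and 0.50 in mean log2 ratio), and Col6a1 to Col6a2, above IgG under anti-B7-H3 (by 0.16) and anti-PD1 (by 0.22). When only the longest transcripts were counted, the groups of these other 4 overlapped. With 3 libraries against 3, p = 0.1 in the permutation test follows from the lack of overlap and adds nothing to it. Ratios of other gene pairs were not formed, so no share can be set beside the 8 of 24. The adjustment does not cover the choice of ratios after the levels had been seen.

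**Figure D3:**
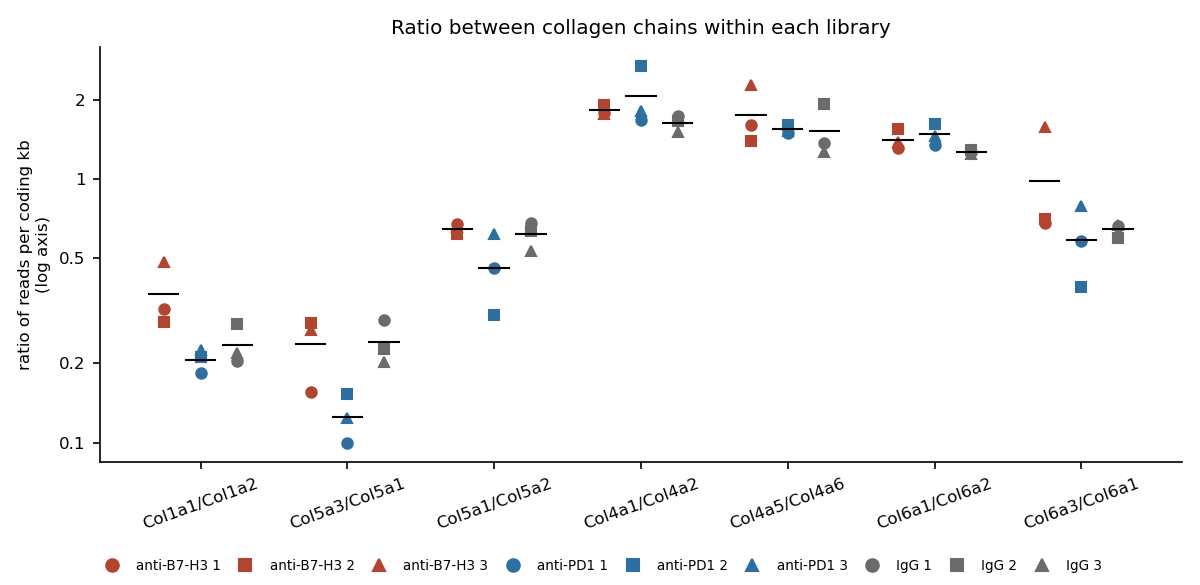
Ratio of reads per coding kilobase between chains in the same library, on a log axis, with each library as a point and group means as bars, in the order anti-B7-H3, anti-PD1, IgG. For Col1a1/Col1a2 the 3 anti-B7-H3 points (0.287 to 0.487) lie above all others, and for Col5a3/Col5a1 the 3 anti-PD1 points (0.0997 to 0.152) lie below all others.

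No basement membrane collagen passed the threshold. Over 8 tested members the median log2 fold change relative to IgG was -0.09 under anti-B7-H3 and -0.31 under anti-PD1, and between the antibodies it was 0.06. Under anti-B7-H3 relative to IgG it was -0.32 without IgG 3 and 0.14 without IgG 2, and between the antibodies it was -0.11 without anti-B7-H3 1 and 0.40 without anti-B7-H3 3. Col18a1 was the most abundant of them, and Col4a1 and Col4a2, the chains of the ubiquitous type IV network, led the type IV genes. Col4a1 and Col4a2 are neighbours on chromosome 8 that are transcribed away from each other, with annotated first exons that overlap by 22 bases, so their promoters share DNA. Both promoters are printed because they share this DNA, and those of Col18a1 because its reads separate its start sites. They are RefSeq windows on GRCm38.p6 of 250 bases before to 50 bases after the start, 5′ to 3′ on the strand of the gene. Capitals mark every match, on either strand, to CCAAT (the box bound by NF-Y) or to GGGCGG (the GC box bound by Sp1), which have no letters in common in these windows. The windows are chr8:11312777-11313076 on the minus strand for Col4a1, chr8:11312555-11312854 on the plus strand for Col4a2, and chr10:77166481-77166780 and chr10:77113656-77113955, both minus strand, for the upstream and downstream starts of Col18a1.
Col4a1: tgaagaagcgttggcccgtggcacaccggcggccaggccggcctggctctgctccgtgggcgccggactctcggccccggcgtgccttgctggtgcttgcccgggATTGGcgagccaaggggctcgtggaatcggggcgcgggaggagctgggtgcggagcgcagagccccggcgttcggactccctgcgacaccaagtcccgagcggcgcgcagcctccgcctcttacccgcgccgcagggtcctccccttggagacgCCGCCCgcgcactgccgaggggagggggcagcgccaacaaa
Col4a2: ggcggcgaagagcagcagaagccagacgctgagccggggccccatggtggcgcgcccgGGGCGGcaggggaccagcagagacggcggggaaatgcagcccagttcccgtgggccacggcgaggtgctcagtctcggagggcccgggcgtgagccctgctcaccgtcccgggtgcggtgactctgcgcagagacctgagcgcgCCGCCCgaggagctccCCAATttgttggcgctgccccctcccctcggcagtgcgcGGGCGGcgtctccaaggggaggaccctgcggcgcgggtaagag
Col18a1 upstream start: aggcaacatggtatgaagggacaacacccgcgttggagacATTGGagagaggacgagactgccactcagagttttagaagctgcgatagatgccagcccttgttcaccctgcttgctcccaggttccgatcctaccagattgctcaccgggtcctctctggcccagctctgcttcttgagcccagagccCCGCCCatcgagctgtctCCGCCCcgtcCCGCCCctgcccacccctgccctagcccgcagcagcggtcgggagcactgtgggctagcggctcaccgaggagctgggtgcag
Col18a1 downstream start: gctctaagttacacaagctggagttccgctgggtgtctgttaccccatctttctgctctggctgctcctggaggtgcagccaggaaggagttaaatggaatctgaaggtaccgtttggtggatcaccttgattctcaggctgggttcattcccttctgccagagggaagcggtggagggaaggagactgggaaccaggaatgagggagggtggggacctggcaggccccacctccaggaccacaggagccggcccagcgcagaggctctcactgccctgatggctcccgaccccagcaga

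The Col4a1 window held 1 CCAAT and 1 GGGCGG, the Col4a2 window 1 and 3, and the upstream Col18a1 window 1 and 3, whereas the downstream Col18a1 window held neither. The GGGCGG of Col4a1 and the last GGGCGG of Col4a2 are the same site. It lies where these windows overlap, is read from opposite strands and is counted in both. TATAAA, searched on both strands as well, was in none of the printed windows. Among 32851 mouse promoter windows of the same length, 37.4% held CCAAT, 35.7% GGGCGG and 13.6% TATAAA. Of 38 windows for 35 collagen genes, 13 held CCAAT, 23 held GGGCGG (60.5%) and 5 held TATAAA. A match describes the letters only.

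Col4a1 had 263, 343 and 169 CPM with anti-B7-H3, 189, 212 and 276 CPM with anti-PD1 and 281, 315 and 171 CPM with IgG. Col4a2 had 150.4, 183 and 97.9 CPM with anti-B7-H3, 115, 80.5 and 155 CPM with anti-PD1 and 165, 193 and 116 CPM with IgG. Groups overlapped for both genes, and their log2 fold changes lay between -0.44 and 0.30. The ratio of Col4a1 to Col4a2 per coding kilobase was 1.79, 1.92 and 1.77 under anti-B7-H3, 1.68, 2.69 and 1.82 under anti-PD1 and 1.74, 1.67 and 1.51 under IgG. It stayed between 1.51 and 1.92 in every library except anti-PD1 2. When only the longest transcript was counted it ranged from 0.57 to 2.39, so it depends on how reads are split between the 5 listed Col4a1 transcripts.

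Col18a1 encodes a proteoglycan-like collagen of vessel and epithelial basement membranes whose end fragment is endostatin, an inhibitor of vessel growth. It had 1349, 1303 and 995 CPM with anti-B7-H3, 907, 671 and 974 CPM with anti-PD1 and 1517, 1509 and 886 CPM with IgG. Anti-B7-H3 lay above anti-PD1 in every library, by 0.52 ± 0.29 (adjusted p = 0.769), but the nearest values were 995 and 974 CPM. Anti-PD1 against IgG came to -0.62 ± 0.29 (adjusted p = 0.285). Without IgG 3 that value was -0.83. Reads of the 3 long transcripts separated the start sites: the transcript from the upstream start, with 3948 coding bases, held 97.5 to 99.4% of them in every library. The transcripts with 4584 and 5325 coding bases held 0 to 0.510% and 0.345 to 2.21%. The 4584-base transcript was listed at 0 in all 3 IgG libraries and held 0.212 to 0.510% in the antibody-treated ones, while the shares of the other 2 overlapped between groups. The IgG libraries had only 1712 to 13064 reads on the main transcript, and an estimated count of 0 can be a failed assignment.

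Col15a1, the other multiplexin, had 209, 198 and 39.7 CPM with anti-B7-H3, 197, 94.6 and 178 CPM with anti-PD1 and 163, 161 and 86.1 CPM with IgG. The value of 39.7 CPM in anti-B7-H3 3 was the lowest of all, and the groups overlapped. Col7a1, which builds the anchoring fibrils below the epidermis, averaged 94.5 ± 24.7 CPM with anti-B7-H3, 64.2 ± 14.4 CPM with anti-PD1 and 94.3 ± 55.5 CPM with IgG (SD, n = 3 each). Col4a5 and Col4a6, a divergent gene pair on the X chromosome whose products join in the basement membranes of smooth muscle and skin, averaged 115 ± 70.1 and 71.1 ± 47.6 CPM with anti-B7-H3. They averaged 123 ± 31.1 and 79.9 ± 22.2 CPM with anti-PD1 and 120.4 ± 58.3 and 76.5 ± 23.1 CPM with IgG. Both were lowest in anti-B7-H3 3, and their ratio per coding kilobase stayed between 1.27 and 2.27. Col4a3 and Col4a4, the chains of kidney, lung and ear basement membranes, were near 0: Col4a3 had at most 1.75 CPM in any library and Col4a4 at most 4.60 CPM.

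Type VI collagen, a heterotrimer of the products of Col6a1, Col6a2 and Col6a3 that forms filaments around cells, was the most abundant of the other collagens. Col6a1 had 880.3, 906 and 372 CPM with anti-B7-H3, 881, 732 and 734 CPM with anti-PD1 and 755, 989 and 649 CPM with IgG. Col6a2 had 677, 590.4 and 272 CPM with anti-B7-H3, 657, 455 and 506 CPM with anti-PD1 and 602, 776 and 526 CPM with IgG. Anti-B7-H3 3 held the lowest value of both chains. Col6a3 had 1914, 2043 and 1880.1 CPM with anti-B7-H3, 1648, 916 and 1858 CPM with anti-PD1 and 1609.9, 1896 and 1395 CPM with IgG. For this chain, anti-B7-H3 3 was not low, and the ratio of Col6a3 to Col6a1 per coding kilobase was 1.58 there against 0.391 to 0.790 in all other libraries. That library also held the highest ratio when only the longest transcripts were counted, at 0.652. Log2 fold changes of the 3 chains lay between -0.31 and 0.40, and their adjusted p-values were at or above 0.74. The ratio of Col6a1 to Col6a2 was narrow, at 1.31, 1.55 and 1.38 under anti-B7-H3, 1.35, 1.62 and 1.46 under anti-PD1 and 1.27, 1.29 and 1.25 under IgG. With the longest transcripts only it was 1.73 to 1.95 and the groups overlapped.

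Among the FACIT collagens, Col12a1, which coats type I fibrils in dense connective tissue, was the only collagen with all anti-PD1 values above all IgG values. It had 306, 167 and 304 CPM with anti-B7-H3, 328, 207 and 367 CPM with anti-PD1 and 144, 188 and 180.4 CPM with IgG; the gene lies on chromosome 9 at 79598991 to 79718831. The log2 fold change was 0.82 ± 0.29 for anti-PD1 against IgG (adjusted p = 0.175) and 0.60 ± 0.29 for anti-B7-H3 against IgG (adjusted p = 0.50). Over all alternatives other than library totals, anti-PD1 against IgG lay between 0.66 and 1.17, and limma-voom with quality weights, and edgeR without a filter on low counts, called it. Col16a1, a FACIT of skin, averaged 260.3 ± 108 CPM with anti-B7-H3, 209 ± 72.9 CPM with anti-PD1 and 257 ± 123 CPM with IgG (SD, n = 3 each). Col14a1 had 14.6, 6.81 and 31.2 CPM with anti-B7-H3, 8.09, 21.7 and 7.97 CPM with anti-PD1 and 6.23, 8.27 and 9.20 CPM with IgG. Its 2 highest libraries, anti-B7-H3 3 and anti-PD1 2, were also those with the most muscle marker reads, 1528 and 1048 CPM. The same libraries held the highest macrophage marker sums, 742 and 834 CPM. Anti-PD1 3 came next in muscle markers, at 445 CPM, but had only 7.97 CPM of Col14a1. The part of muscle or of other tissue was not tested. Among the network-forming collagens, Col8a1 of vessel walls had 53.8 to 95.0 CPM with anti-B7-H3, 61.5 to 75.7 CPM with anti-PD1 and 16.6 to 81.7 CPM with IgG.

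Col17a1 gave the smallest p of the family. It encodes the transmembrane collagen of hemidesmosomes, by which basal keratinocytes hold to the basement membrane, and lies on chromosome 19 at 47646344 to 47692094. It had 0.563, 1.00 and 0.643 CPM with anti-B7-H3, 0.219, 0.561 and 0.589 CPM with anti-PD1 and 2.73, 2.23 and 5.52 CPM with IgG. Every antibody-treated library lay below every IgG library. The log2 fold change was -2.15 ± 0.55 for anti-B7-H3 against IgG (adjusted p = 0.123) and -2.80 ± 0.58 for anti-PD1 against IgG (adjusted p = 0.064). DESeq2 and limma-voom with quality weights called both. The reads behind these values were few, at 11, 36 and 25 under anti-B7-H3, 3, 13 and 15 under anti-PD1 and 14, 20 and 12 under IgG.

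Both keratinocyte markers and background moved with Col17a1. The summed level of 8 keratinocyte markers was 0.556 to 2.56 CPM with anti-B7-H3, 1.14 to 2.62 CPM with anti-PD1 and 11.1 to 27.6 CPM with IgG, with no marker at 0 in a whole group. Only 1 of these 8 markers was tested, and their sum was not set against receptor background. Receptor background predicts 37.1 reads for the coding length of Col17a1 in the IgG libraries, where 46 were counted. With the predicted reads subtracted, the log2 fold changes were -0.30 for anti-B7-H3 and -1.21 for anti-PD1, each against IgG. With the background as a covariate they were -2.11 and -2.76. The separate part of keratinocytes in this difference was not tested.

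The same count against prediction marks the rest of the scarce collagens. In the IgG libraries, 16 of the 21 members under 5 CPM had fewer reads than receptor background predicts, and the other 5 had between 1.24 and 2.97 times the prediction. In the anti-B7-H3 and anti-PD1 libraries, 2 members each were under the prediction. The 23 abundant members had at least 156 times the predicted reads with anti-B7-H3, 41.7 times with anti-PD1 and 2.77 times with IgG. At the top of the range, Col1a2 had 43741 reads in the IgG libraries against 34.7 predicted.

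**Figure D4:**
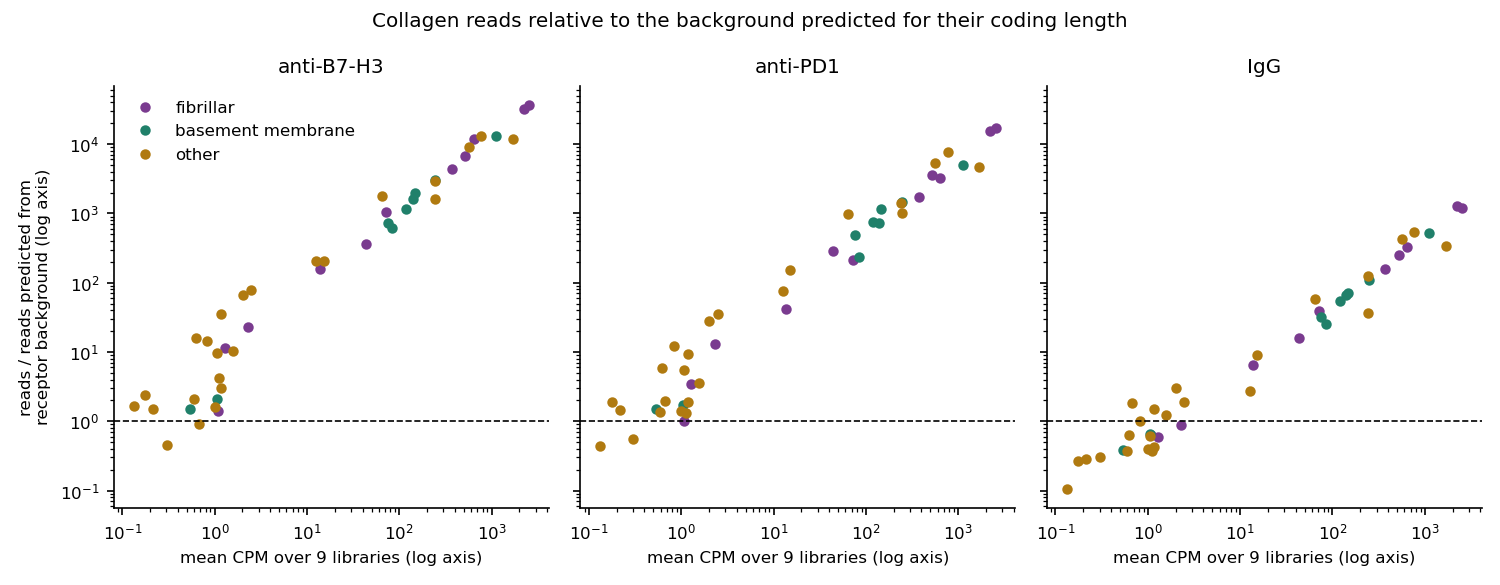
Reads of each of the 44 collagens divided by the reads that receptor background predicts for its coding length, against mean CPM, both on log axes, for anti-B7-H3, anti-PD1 and IgG from left to right. The dashed line marks a ratio of 1. With IgG, 16 collagens lie under the line, compared with 2 in each antibody group.

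The lowest fold changes of the family belonged to these scarce genes. Col4a4 had 0.461, 0.0556 and 0.154 CPM with anti-B7-H3, 0.510, 0.0431 and 0.353 CPM with anti-PD1 and 2.92, 0.335 and 4.60 CPM with IgG. Its log2 fold change was -3.49 ± 1.09 for anti-B7-H3 against IgG (adjusted p = 0.212) and -3.01 ± 1.08 for anti-PD1 against IgG (adjusted p = 0.181). IgG 2, the IgG library with the least background, overlapped the antibody-treated libraries. The 28 reads of the IgG libraries were 0.659 of the prediction. With receptor background as a covariate both values turned positive, to 2.14 and 1.63. Background and group are not separable in that fit, because receptor background did not overlap between IgG and antibody-treated libraries.

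Col6a4, Col6a5 and Col6a6, long chains related to Col6a3, followed the same order among IgG libraries. Col6a4 had 0.358, 0.278 and 0.411 CPM with anti-B7-H3, 0.364, 0.474 and 0.392 CPM with anti-PD1 and 1.56, 0.335 and 6.44 CPM with IgG. Its log2 fold change was -2.75 ± 0.87 for anti-B7-H3 against IgG (adjusted p = 0.227) and -2.51 ± 0.88 for anti-PD1 against IgG (adjusted p = 0.174), and DESeq2 called both. Without IgG 3 these were -1.31 and -1.08, and without IgG 2 edgeR called both. With background as a covariate they turned positive, to 0.58 and 0.23. Col6a6 had a log2 fold change of -3.39 ± 1.11 for anti-B7-H3 against IgG, which DESeq2 called, as it did Col4a4 there. Without IgG 3 it was -2.15, and with background as a covariate it turned positive, to 1.04. In IgG libraries the reads of Col6a4, Col6a5 and Col6a6 were 0.429, 0.375 and 0.402 of the prediction. Col10a1, not tested, had 2, 1 and 0 reads with anti-B7-H3, 2, 3 and 3 reads with anti-PD1 and 12, 16 and 3 reads with IgG, where 17.2 reads are predicted in all; a count of 0 allows up to 3.

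Abundant and scarce members differed in their fold changes. The 23 members at or above 5 CPM had a median log2 fold change relative to IgG of 0.03 under anti-B7-H3 and -0.15 under anti-PD1, and of 0.25 between the antibodies. The 13 tested members under 5 CPM had -1.03, -1.53 and 0.42 in the same order of comparisons. In the scarce set, 12 of 13 values relative to IgG were negative with anti-B7-H3 and 13 of 13 with anti-PD1. In the abundant set, 9 of 23 and 14 of 23 were negative. Scarce genes pass the filter on low counts through the libraries where they are high, so these counts are a description only. The 24 other collagens, 18 of them tested, had medians of -0.41, -0.36 and 0.21, and many of them are scarce. Relative to IgG, their medians under anti-B7-H3 and anti-PD1 were 0.23 and -0.01 with background subtracted and 0.13 and 0.07 with background as a covariate. Without a filter on low counts the anti-PD1 value was -0.89, and without anti-B7-H3 1 the value between the antibodies was -0.07.

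**Figure D5:**
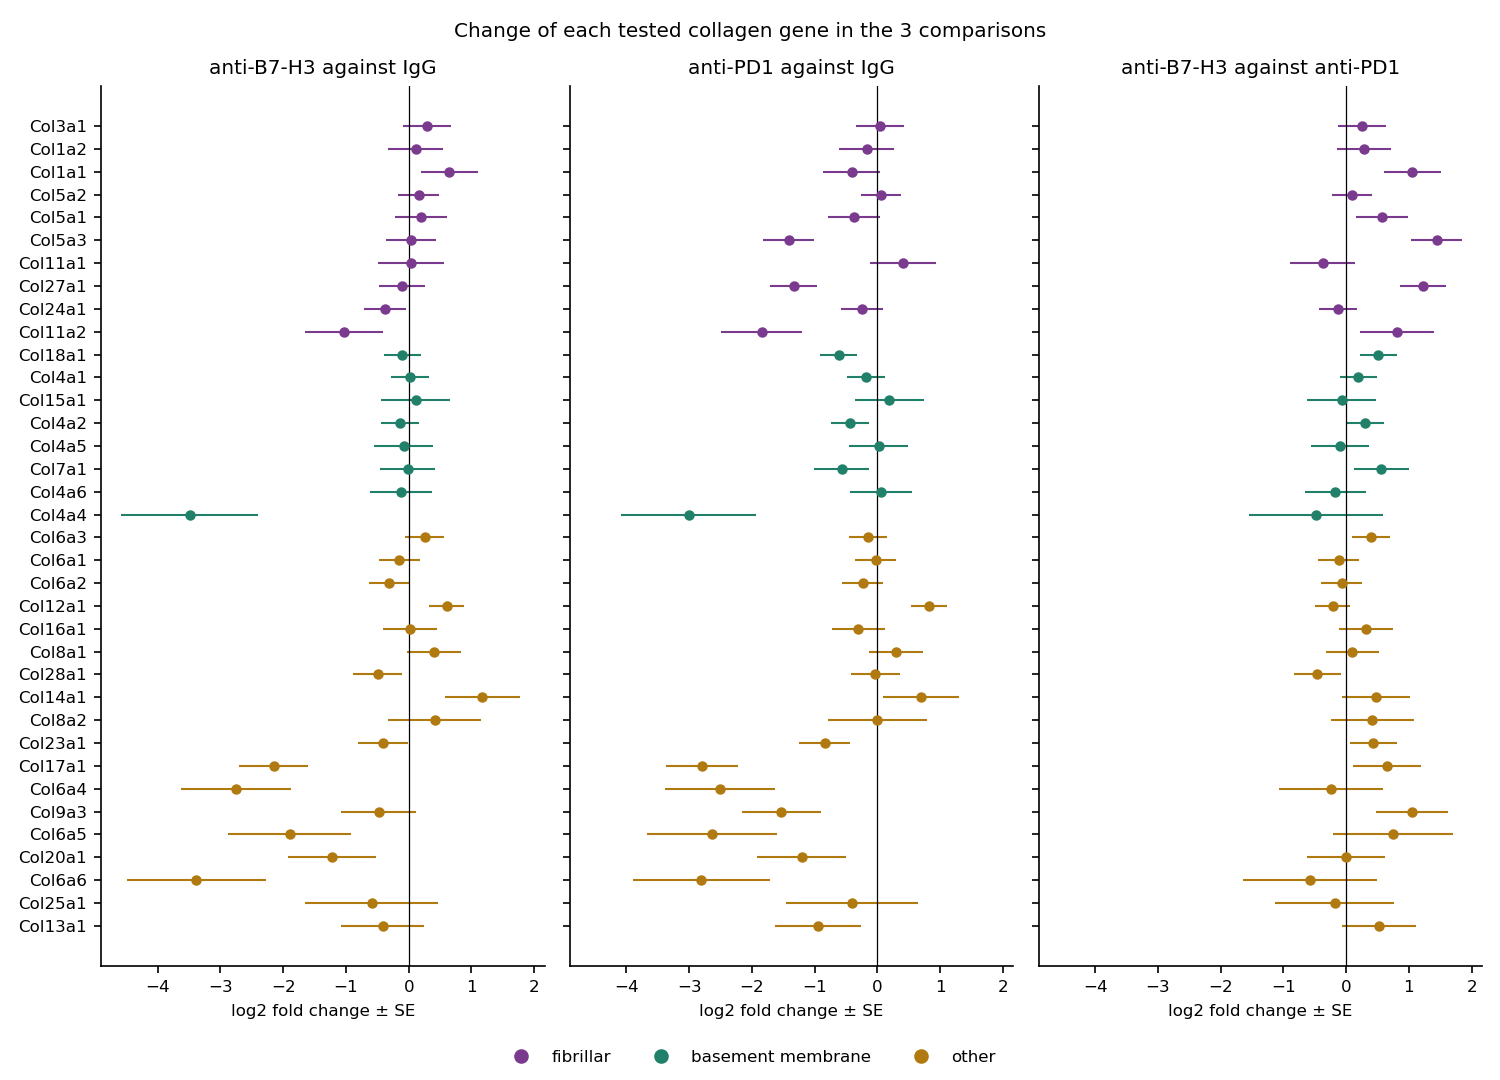
Log2 fold change with its SE of the 36 tested collagens in 3 panels, from left to right each antibody relative to IgG (anti-B7-H3, then anti-PD1) and anti-B7-H3 relative to anti-PD1, by class and, within a class, falling mean level from top to bottom. The values furthest below 0 against IgG sit at the bottom of each class, down to -3.49 for Col4a4, and the largest positive value is 1.44 for Col5a3 between the antibodies.

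Genes that make, crosslink and bind collagen were counted from lists by role, and none of their tested members passed the threshold in any comparison. Of 28 genes that modify, fold and process procollagen, 25 were tested, with median log2 fold changes relative to IgG of 0.17 under anti-B7-H3 and 0.05 under anti-PD1, and of 0.10 between the antibodies. P3h2, a prolyl 3-hydroxylase of basement membrane collagen, averaged 2.39 ± 0.687 CPM with anti-B7-H3, 2.05 ± 0.494 CPM with anti-PD1 and 5.62 ± 1.97 CPM with IgG (SD, n = 3 each). Its log2 fold change was -1.42 ± 0.38 for anti-PD1 against IgG (adjusted p = 0.107). Adamts14, a protease that removes the amino-terminal propeptide of fibrillar procollagen, averaged 77.4 ± 1.56 CPM with anti-B7-H3, 44.5 ± 13.5 CPM with anti-PD1 and 72.0 ± 23.9 CPM with IgG. All anti-B7-H3 values were above all anti-PD1 values, with a log2 fold change of 0.80 ± 0.27 (adjusted p = 0.749).

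Of the 6 crosslinking enzymes, all tested, the median relative to IgG was 0.20 under anti-B7-H3 and 0.09 under anti-PD1, and between the antibodies it was 0.50. Loxl4, a lysyl oxidase, averaged 4.33 ± 1.36 CPM with anti-B7-H3, 2.72 ± 0.160 CPM with anti-PD1 and 6.18 ± 1.01 CPM with IgG (SD, n = 3 each). Anti-PD1 lay below both other groups, and the log2 fold change of anti-PD1 against IgG was -1.18 ± 0.28 (adjusted p = 0.080). The 9 tested collagen receptors of 10 had medians of 0.07, -0.02 and 0.20 in the same order of comparisons. Lair1, an inhibitory collagen receptor of immune cells, averaged 5.15 ± 2.34 CPM with anti-B7-H3, 4.33 ± 1.74 CPM with anti-PD1 and 2.66 ± 0.711 CPM with IgG, with a log2 fold change of 1.01 ± 0.45 for anti-B7-H3 against IgG (adjusted p = 0.463). The 14 tested of 16 basement membrane partners (laminins, nidogens and others) had medians of 0.02, -0.14 and 0.10. Lama3, a laminin chain of epithelial basement membranes, averaged 1.51 ± 0.105 CPM with anti-B7-H3, 1.57 ± 0.606 CPM with anti-PD1 and 4.73 ± 3.49 CPM with IgG (SD, n = 3 each). Its log2 fold change relative to IgG was -1.52 ± 0.51 under anti-B7-H3 (adjusted p = 0.257) and -1.46 ± 0.51 under anti-PD1 (adjusted p = 0.174).

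Of 9 proteoglycans of collagen fibrils 8 were tested, with medians relative to IgG of 0.08 under anti-B7-H3 and 0.28 under anti-PD1, and of -0.16 between the antibodies. Aspn (asporin) averaged 7.25 ± 3.34 CPM with anti-B7-H3, 12.6 ± 4.55 CPM with anti-PD1 and 4.20 ± 0.724 CPM with IgG (SD, n = 3 each). Its log2 fold change was 1.54 ± 0.42 for anti-PD1 against IgG (adjusted p = 0.113). Lum (lumican) averaged 13.3 ± 6.12 CPM with anti-B7-H3, 33.7 ± 19.3 CPM with anti-PD1 and 12.2 ± 5.53 CPM with IgG, a log2 fold change of 1.41 ± 0.50 for anti-PD1 against IgG (adjusted p = 0.187). Dcn (decorin), the most abundant member named here, averaged 60.2 ± 13.7 CPM with anti-B7-H3, 55.6 ± 21.3 CPM with anti-PD1 and 59.6 ± 9.87 CPM with IgG. The summed level of 8 fibroblast markers, which include Lum and Dcn of the proteoglycan list, was 889, 798 and 639 CPM with anti-B7-H3, 1061, 1364 and 998 CPM with anti-PD1 and 561, 709 and 618 CPM with IgG. Anti-PD1 lay above both other groups there. The summed fibrillar collagens were 9742, 6366 and 5922 CPM with anti-B7-H3, 5729, 4626 and 6877.5 CPM with anti-PD1 and 6855, 8745 and 2978 CPM with IgG. Of the 8 fibroblast markers, 7 were positive for anti-PD1 against IgG, with a median log2 fold change of 0.87, and 0 passed the threshold (smallest adjusted p = 0.060). Neither sum was tested.

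Markers of other tissues were also summed. Endothelial markers stood at 47.1 to 70.3 CPM with anti-B7-H3, 64.0 to 69.9 CPM with anti-PD1 and 48.5 to 72.3 CPM with IgG. Pericyte and smooth muscle markers stood at 219 to 286 CPM with anti-B7-H3, 162 to 251 CPM with anti-PD1 and 136 to 284 CPM with IgG. Macrophage markers stood at 434 to 742 CPM with anti-B7-H3, 331 to 834 CPM with anti-PD1 and 159 to 398 CPM with IgG. Chondrocyte (at most 28.3, 29.3 and 36.4 CPM), Schwann cell (8.69 to 11.5, 8.05 to 13.3 and 9.20 to 14.6 CPM) and adipocyte markers (2.51 to 6.53, 3.35 to 5.61 and 3.35 to 4.28 CPM) were low with anti-B7-H3, anti-PD1 and IgG, in that order. Of 7 melanocyte markers only 1 was tested, and their sum was 4.58 to 5.53 CPM with anti-B7-H3, 4.59 to 9.25 CPM with anti-PD1 and 7.04 to 19.3 CPM with IgG. Mlana and Tyr were at 0 in all anti-B7-H3 libraries and Tyrp1 in all anti-PD1 libraries. No melanocyte marker was at 0 in all IgG libraries. These sums are low, and the pigment cell identity of the labelled tumor line was not tested. The part of these tissues in the collagen values was not tested either.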

How the data were processed

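RNA of whole tumors was measured in 9 libraries, 3 per group. Per the labels' protocols, total RNA was depleted of ribosomal RNA; per the submitters' processing notes, the build was GRCm38 and FastQC 0.11.8 was used. For the quantification software, a name was not given in the sources used here. Per transcript, the authors deposited estimated counts, not normalized, with TPM values and lengths, per the file headers; TPM was not tested. Listed lengths equal the annotated coding length for 92.2% of 57298 transcripts, so values leave out UTRs. Of 58083 transcripts, 57409 matched GENCODE M21; the 674 others held 0.105 to 0.369% of reads.

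Gene counts are sums over transcripts, rounded to whole numbers. The test was edgeR 4.0.16 under R 4.3.3 (TMM, filterByExpr, robust quasi-likelihood, the 9 libraries in 1 model that holds group alone) and Benjamini-Hochberg adjustment over 12965 genes at 0.05; the biological coefficient of variation was 28.4%. The SE is the fold change over the root of F. The test was checked on simulated data. Satellite reads and background did not differ between groups in the simulation, so the check does not cover such differences. TMM changes are relative to the typical gene; library totals move the median log2 fold change of all genes to 3.37 (anti-B7-H3 against IgG), 3.15 (anti-PD1 against IgG) and 0.20 (anti-B7-H3 against anti-PD1). Satellite genes share over 30% of their 15-base words with the gene with the most reads. Predicted background is receptor reads per coding base times coding length. Ratios used exact permutation tests (SciPy 1.17.1). No libraries of a group were duplicates: chi-square per degree of freedom was 12.3 to 69.0.

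The members and lists were chosen with earlier results of these data known. Named members are the 6 smallest p per comparison, the 4 most abundant per class and their partner chains; the others are given by range or named after their values were seen. Genes named from partner lists are among the 3 smallest p of a comparison, except Dcn, chosen after its values were seen; not all such genes are named. The floor of 3 reads for a count of 0 covers counting error only; SEs hold the spread between libraries. Alternatives were DESeq2 1.42.0, limma-voom (limma 3.58.1), other scalings and filters, the compared libraries only, a replicate block, background corrections and leaving out each library.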

Additional observations from a re-analysis of the deposited data

How the results depend on the processing

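Numbers of calls, here relative to IgG with anti-B7-H3 first and anti-PD1 second, depended on the scaling and the tool. The fit of the report called 72 and 51 genes in all, and 0 and 0 collagens. Library totals, which keep the satellite reads in the scale, called 12529 and 12333 genes, 33 and 31 of them collagens (23 genes and 0 collagens between the antibodies). Totals without satellite genes called 486 and 491 genes, with 1 collagen (Col10a1) and 2 (Col10a1 and Col17a1). Without a filter on low counts there were 1097 and 731 genes (4 between the antibodies), with 1 collagen (Col10a1) and 2 (Col12a1 higher, Col17a1 lower). A minimum of 10 reads in 6 libraries left 4 and 16 genes. DESeq2 called 495 and 814 genes (22 between the antibodies), with 4 and 4 collagens. Limma-voom called 45 genes with anti-B7-H3, and with quality weights 354 and 432 (1 between the antibodies), with 1 collagen (Col17a1) and 2 (Col12a1 higher, Col17a1 lower). The compared libraries alone gave 20 and 88 genes, subtracted background 10 and 9, and background as covariate 0 and 6. Leaving out each library gave 8 to 441 and 9 to 432 genes, most without IgG 2, and 0 to 1 and 0 to 2 collagens (Col6a4 without IgG 2 in both, with Col17a1 for anti-PD1; Col27a1 without anti-B7-H3 1). Between the antibodies it gave 0.

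Same-numbered libraries of different groups correlated at -0.324 to 0.180 and differently numbered ones at -0.434 to 0.522, so the numbers were not taken as pairs. The replicate block gave 98 and 124 genes, 0 between the antibodies and 0 collagens.

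Class medians moved with library totals, to 3.28 and 2.75 (fibrillar), 3.16 and 2.79 (basement membrane) and 2.92 and 2.71 (other), against a shift of all genes to 3.37 and 3.15. The median of the other collagens with anti-B7-H3 was 0.23 with background subtracted. Leaving out each library, the fibrillar medians ranged from -0.21 to 0.41, -0.60 to 0.07 and 0.16 to 0.71 (between the antibodies), those of basement membrane from -0.32 to 0.22, -0.51 to -0.12 and -0.11 to 0.40, and those of the others from -0.49 to 0.01, -0.56 to -0.23 and -0.07 to 0.34. Under library totals, negative values turned positive with anti-B7-H3 for Col11a2 (2.48), Col17a1 (1.31), Col18a1 (3.18), Col27a1 (3.16), Col4a2 (3.14), Col4a5 (3.04), Col4a6 (3.08), Col6a1 (3.10), Col6a2 (2.94), Col6a5 (1.67) and Col9a3 (2.96). With anti-PD1 they did for Col11a2 (1.48), Col18a1 (2.48), Col1a1 (2.57), Col1a2 (2.84), Col27a1 (1.84), Col4a1 (2.93), Col4a2 (2.66), Col5a1 (2.66), Col5a3 (1.69), Col6a1 (3.04), Col6a2 (2.83), Col6a3 (2.95) and Col9a3 (1.75). Further named members also turned positive under library totals, to smaller values. With anti-B7-H3 these were Col4a4 (0.02), Col6a4 (0.88) and Col6a6 (0.17). With anti-PD1 these were Col17a1 (0.50), Col4a4 (0.34), Col6a4 (0.94), Col6a5 (0.75) and Col6a6 (0.65). With background as a covariate, the negative values of Col4a4, Col6a4 and Col6a6 relative to IgG turned positive under both antibodies. Background did not overlap between IgG and the other groups, so that fit cannot tell it apart from group. The alternatives for chain ratios (longest transcripts only, background subtracted) were chosen after seeing the data. Low depth and high background in the IgG libraries limit every comparison with them, above all for the 21 members under 5 CPM.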
